A study of Mus musculus with 4 samples.

Results

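The genes of the egg coat and of the factors that the mouse oocyte secretes were followed in late two-cell embryos of the ICR strain. The set holds 7 genes chosen by name, Zp1, Zp2, Zp3, Astl, Gdf9, Bmp15 and Oosp1, among 24411 genes listed in each library. All 7 passed the filter on low counts, which left 13549 genes for testing. Their RNA was read in 4 libraries of polyadenylated RNA, each pooled from 10 embryos made by in vitro fertilization and collected at 36 h post-insemination (hpi). Embryos of 2 libraries were cultured with 6 µM 10074-G5, a small molecule that prevents MYC from pairing with MAX, and embryos of 2 control libraries with DMSO, its solvent. The sample labels place the start of treatment at 3 hpi and the series description at 6 hpi. Values are shares of the polyadenylated RNA of a library, so fewer copies of a transcript per embryo and more copies of other transcripts cannot be told apart.

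The zona pellucida is the glycoprotein coat that the growing oocyte lays down around itself, and in the mouse it is built from ZP1, ZP2 and ZP3. Astl encodes ovastacin, a protease that leaves the egg's cortical granules after fertilization and cleaves ZP2 so that the coat becomes refractory to further sperm. GDF9 and BMP15 are TGF-beta family ligands through which the oocyte acts on the surrounding granulosa and cumulus cells, and OOSP1 is a small secreted oocyte protein. These messages are made during oocyte growth, and maternal mRNA is degraded as the embryonic genome becomes active, so what is left of them in a two-cell embryo is taken as a readout of remaining maternal RNA. FIGLA, a basic helix-loop-helix factor, is known to drive the zona genes through an E-box (CANNTG), and NOBOX, a homeobox factor, acts on oocyte genes including Gdf9.

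Because Zp3 ran against the other 6 genes in the values that follow, its upstream sequence is shown beside those of Bmp15 and Oosp1, the genes with the highest mean counts. The sequences are from RefSeq promoter windows on GRCm38.p6 and are written 5′ to 3′ on the strand of the gene, with a CANNTG or TAATTA in capitals. They are chr5:135979855-135980098 on the plus strand for Zp3, chrX:6320725-6320974 on the minus strand for Bmp15 and chr19:11691151-11691301 on the minus strand for Oosp1. Each begins 250 bases before the RefSeq start of the gene, and bases that GENCODE places inside the transcript were left off.
Zp3: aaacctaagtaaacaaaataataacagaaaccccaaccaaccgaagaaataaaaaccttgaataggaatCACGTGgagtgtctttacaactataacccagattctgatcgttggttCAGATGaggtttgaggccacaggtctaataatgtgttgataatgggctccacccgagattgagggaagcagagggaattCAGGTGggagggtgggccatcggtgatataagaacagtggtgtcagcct
Bmp15: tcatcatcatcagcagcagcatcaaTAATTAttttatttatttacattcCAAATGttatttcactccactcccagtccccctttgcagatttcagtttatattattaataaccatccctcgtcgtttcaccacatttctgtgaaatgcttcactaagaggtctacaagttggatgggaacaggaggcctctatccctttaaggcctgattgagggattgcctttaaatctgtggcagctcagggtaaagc
Oosp1: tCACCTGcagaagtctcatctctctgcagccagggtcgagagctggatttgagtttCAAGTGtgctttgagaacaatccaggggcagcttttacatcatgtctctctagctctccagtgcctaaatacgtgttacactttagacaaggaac

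Windows were found for 4 of the 7 genes (Zp3, Astl, Bmp15 and Oosp1), and their 250 upstream bases were searched on both strands for the general E-box CANNTG, for the E-box CACGTG that MYC and MAX bind and that is also a CANNTG, and for TAATTG or TAATTA, to which NOBOX can bind. The Zp3 window held CACGTG beginning 181 bases before the start, CAGATG at 134 and CAGGTG at 55. CACGTG was found in 6.02% of all 32851 windows of this length and CANNTG in 66.2%. The Bmp15 window held CAAATG at 201 bases and TAATTA at 225 bases, which was found in 4.84% of all windows. The Oosp1 window held CACCTG at 249 and CAAGTG at 194 bases, and 3 more CANNTG words nearer to the start, beyond the stretch shown. Astl has 2 annotated starts, of which the window of the first held none of the words and that of the second held CAGGTG at 109, 83 and 59 bases. No window of these genes held TAATTG, which 7.17% of all windows did. These are matches of letters only.

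The libraries held between 18206584 and 20718690 expected counts. Control replicate 1 stood apart from the other 3 libraries. The CPM (counts scaled to the TMM-normalized total of a library) of the control replicates differed by over 2-fold for 43.4% of the tested genes, against 21.9% for the treated replicates, and for these 7 genes the numbers were 6 and 0. The 7 two-cell markers written down (Zscan4c, Zscan4d, Zscan4f, Zfp352, Tdpoz3, Tdpoz4 and Usp17la) were all detected, and their summed CPM was 718 and 2594 in the control and 3943 and 3413 in the treated libraries. They were thus also lowest in control replicate 1, and their part in the results was not tested. Of 16 cumulus and granulosa markers, 5 (Ptx3, Inha, Inhba, Amh and Foxl2) had no count in any library, 2 more had at most 3 counts, and the summed CPM ranged from 20.9 to 30.7 outside control replicate 1, where it was 48.6. In control replicate 1 most of that signal was Amhr2, a gene for the receptor of anti-Müllerian hormone, with 41.1 CPM there and 13.8, 8.95 and 7.01 CPM in the other libraries. Without Amhr2, the summed CPM of the list was lowest in control replicate 1, so the high sum there rested on that gene. Of 11 sperm markers, 5 had no count, and the summed CPM ranged from 1.98 to 6.73. Cdx2, a trophectoderm factor of later embryos, had 0 and 4 counts in control and 0 and 0 in treated libraries. The other later stage markers written down were detected. Gata4 had 1393 and 1171 counts in control and 586 and 740 in treated libraries. Krt18 had 25 and 129 counts in control and 133 and 167 in treated libraries. Krt8, Gata6, Sox17 and Eomes had at most 108 counts in a library. Of the 6 later stage markers tested, 5 were higher and 1, Gata4, was lower in treated embryos. Among the higher ones, the groups overlapped for Krt18, Gata6, Sox17 and Eomes, and 0 of the 6 had an adjusted p under 0.05 by edgeR.

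The 7 genes differed widely in level. On the FPKM scale, which is per transcript length and so can be compared between genes, Oosp1 was the highest in every library and Astl the lowest. The order in both treated libraries was Oosp1, Bmp15, Gdf9, Zp3, Zp2, Zp1 and Astl. In control replicate 2 Zp3 stood above Gdf9, and in control replicate 1 it stood above Bmp15 as well. Gdf9 and Zp3 in the treated libraries (83.9 ± 13.2 and 62.0 ± 4.37 FPKM, SD, n = 2) did not overlap, nor did any other neighbours in that order. In control embryos the ranges of Bmp15 (202 ± 187 FPKM) and Zp3 (140 ± 91.9 FPKM) overlapped, and their order differed between the libraries. The ranges of Gdf9 (31.8 ± 23.6 FPKM), Zp2 (23.7 ± 17.1 FPKM) and Zp1 (15.5 ± 7.49 FPKM) also overlapped. Within each control library, however, Gdf9 stood above Zp2 and Zp2 above Zp1. The genes were read in the same libraries, so these SDs do not measure the spread of a difference between genes. Together the 7 genes took 0.0801% of the counts of control replicate 1 (95% Wilson interval 0.0789 to 0.0814), 0.212% of control replicate 2 (0.210 to 0.215), 0.393% of treated replicate 1 (0.391 to 0.396) and 0.336% of treated replicate 2 (0.334 to 0.339). The intervals cover counting error only, and PCR copies were counted like separate molecules. Of the counts of the 7 genes, Oosp1 alone held 41.1% and 43.9% in control and 56.2% and 51.5% in treated libraries. The summed share thus weighs the abundant genes most, and it hides that Zp3 ran the other way.

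**Figure D1:**
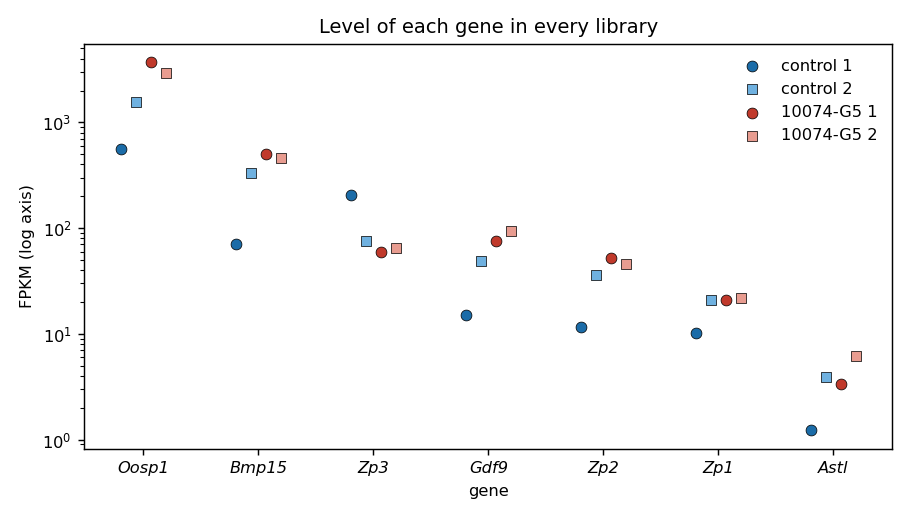
FPKM of the 7 genes (x axis, ordered by mean) in each of the 4 libraries on a log axis (blue, DMSO control replicates; red, 10074-G5-treated replicates). For 6 genes the dark blue point of control replicate 1 is the lowest, and for Zp3, at 205 FPKM, it is the highest.

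The log2 fold change (log2FC) of treated over control embryos was tested with the quasi-likelihood test of edgeR, and p-values were adjusted after Benjamini and Hochberg. A gene counted as called with |log2FC| > 1 and adjusted p < 0.05. By this rule 0 of the 7 genes were called, and the share called among all tested genes was 0%. DESeq2 called 1 of the 7, Oosp1, as higher in each of 3 settings, which were the same genes (0.701% of them called higher), all genes with a count (0.478%) and all genes with transcript lengths (0.456%). limma on log2 FPKM called 0 of the 7 and 0% of all genes. Relative to control embryos, 6 genes were higher in 10074-G5-treated embryos and 1, Zp3, was lower. The median log2FC of the 7 was 0.96, against 0.04 over all tested genes. The groups did not overlap for 5 genes that were higher (Zp1, Zp2, Gdf9, Bmp15 and Oosp1), where 28.9% of all tested genes showed this, and for 1 that was lower (Zp3), where 28.3% did. For Zp1 the margin was narrow, with 33.0 CPM in control replicate 2 and 33.4 and 33.6 CPM in the treated libraries. An unadjusted p under 0.05 was found for 2 higher genes, Gdf9 and Oosp1, against 4.72% of all tested genes, and for 1 lower gene, Zp3, against 10.1%. With 2 libraries against 2, an exact two-sided permutation test of a single gene cannot give a p under 0.333. Without control replicate 1 the median log2FC of the 7 genes was 0.45, and without control replicate 2 it was 1.81; each of these fits has a lone control library, which is assumed to vary like the treated pair.

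**Figure D2:**
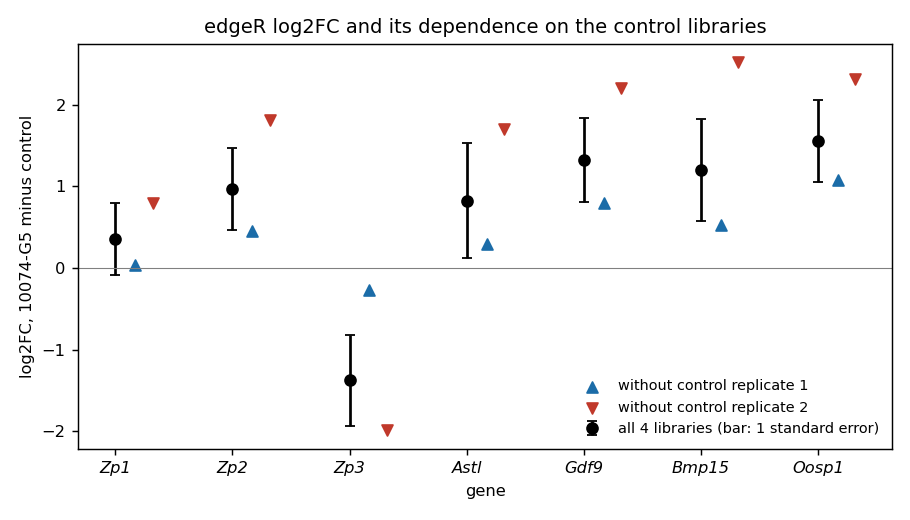
edgeR log2FC of each gene (treated minus control, y axis) over all 4 libraries with 1 standard error (black), without control replicate 1 (blue triangles) and without control replicate 2 (red triangles). Zp3 is the only gene below 0, and each gene is closest to 0 without control replicate 1, where the log2FC ranged from -0.27 for Zp3 to 1.08 for Oosp1.

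Zp1 encodes the protein that cross-links the filaments of the coat, and lies on chromosome 19 (GRCm38.p6, 10914287 to 10920632, minus strand). Its FPKM was 10.3 and 20.8 in controls and 21.1 and 21.6 in treated embryos. Only control replicate 1 was low, and the other 3 libraries lay close together. The log2FC was 0.36 (standard error, SE, 0.44, edgeR adjusted p = 0.708), and it was 0.03 without control replicate 1.

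Zp2, whose product is a filament subunit and the substrate of ovastacin, lies on chromosome 7 from 120126772 to 120145291 on the minus strand. It had 11.6 and 35.8 FPKM in controls and 52.1 and 45.5 FPKM in treated embryos. The treated libraries were the higher pair, and control replicate 2 was nearer to them than to control replicate 1. The log2FC of Zp2 was 0.96 (SE 0.50, edgeR adjusted p = 0.385) and 0.45 without control replicate 1.

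Zp3, on chromosome 5 from 135980099 to 135988624 on the plus strand, encodes the other main filament subunit. Its rounded counts were 4072 and 1418 in control and 1274 and 1339 in treated libraries, and its FPKM was 205, 75.1, 59.0 and 65.1 in the same order. Control replicate 1 was high and the other 3 libraries were alike. The CPM of Zp3 was 3.25-fold higher in control replicate 1 than in control replicate 2, whereas the other 6 genes were 1.71-fold to 4.01-fold higher in control replicate 2 than in control replicate 1. The log2FC was -1.37 (SE 0.56, edgeR adjusted p = 0.333), and without control replicate 1 it was -0.27. Of all tested genes, 41.3% had their lowest CPM in control replicate 1, as 6 of the 7 genes did, and 36.8% had their highest CPM there, as Zp3 did. No annotated gene overlaps Zp3. Its nearest protein-coding neighbours, looked up after its values were seen, were Ssc4d, 5568 bases before it, with 11.9 and 8.84 CPM in control and 8.77 and 6.01 CPM in treated libraries, and Dtx2, 6176 bases after it, with 50.1 and 81.6 CPM in control and 90.5 and 98.6 CPM in treated libraries. Dtx2 was thus lowest where Zp3 was highest, and Ssc4d was highest in the same library as Zp3.

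The contrast within the coat genes does not depend on how libraries are scaled to each other. Zp3 made up 90.4% of the summed FPKM of Zp1, Zp2 and Zp3 in control replicate 1, 57.0% in control replicate 2, 44.6% in treated replicate 1 and 49.3% in treated replicate 2. The sum itself was 227 FPKM in control replicate 1 and 132 FPKM in each of the other 3 libraries. Unlike the shares, this sum depends on how each library was scaled. Within a library, the FPKM ratio of Zp2 to Zp3 was 0.0565 and 0.476 in control and 0.883 and 0.698 in treated embryos, a 15.6-fold range. The ratio of Zp1 to Zp2 was 0.885 and 0.582 in control and 0.405 and 0.475 in treated embryos, a 2.19-fold range. The ranges of ratios to Zp3 were 7.15-fold for Zp1, 16.0-fold for Astl, 19.5-fold for Gdf9, 25.0-fold for Bmp15 and 23.1-fold for Oosp1. The 15 pairs of genes without Zp3 had ranges from 1.49-fold, for Gdf9 to Bmp15, to 3.50-fold, for Zp1 to Bmp15, with a median of 2.11-fold. The range of every pair with Zp3 was thus wider than that of every pair without it.

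**Figure D3:**
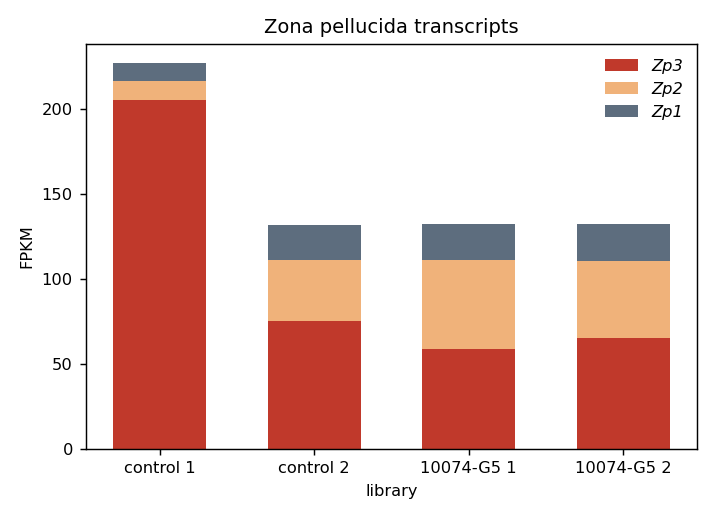
Stacked FPKM of Zp3, Zp2 and Zp1 (y axis from 0) in each library. The total is 227 FPKM in control replicate 1, of which Zp3 is 90.4%, and 132 FPKM in each of the other 3 libraries. Totals depend on the scaling of each library.

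Astl, on chromosome 2 from 127338639 to 127357651 on the plus strand, was the least abundant of the set, with 46 and 140 counts in control and 138 and 243 counts in treated libraries. Its FPKM was 1.22 and 3.90 in control and 3.37 and 6.22 in treated embryos. Treated replicate 1 lay below control replicate 2, so the groups overlapped, and Astl was the only gene of the set for which they did. The log2FC of Astl was 0.82 (SE 0.70, edgeR adjusted p = 0.573) and 0.30 without control replicate 1.

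The ligand genes Gdf9 and Bmp15, whose products act together on the follicle, kept a similar ratio to each other and were both higher in treated embryos, short of the threshold. Gdf9, on chromosome 11 from 53431023 to 53437904 on the plus strand, had 15.1 and 48.5 FPKM in control and 74.6 and 93.2 FPKM in treated embryos. Both treated libraries lay above both controls. Its log2FC was 1.32 (SE 0.52, edgeR adjusted p = 0.333), and 0.79 without control replicate 1. The Gdf9 gene starts 192 bases from Uqcrq, a gene of the respiratory chain on the other strand, which had 478 and 272 CPM in control and 225 and 251 CPM in treated libraries. This neighbour had a log2FC of -0.65, but it was highest in control replicate 1, and control replicate 2 lay nearer to the treated libraries than to control replicate 1.

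Bmp15, on chromosome X from 6314107 to 6320721 on the minus strand, had 69.9 and 334 FPKM in control and 504 and 461 FPKM in treated embryos. Of the 7 genes it had the largest gap between the control libraries, which was 4.01-fold in CPM, against 1.11-fold between the treated libraries. The log2FC of Bmp15 was 1.20 (SE 0.62, edgeR adjusted p = 0.384), and without control replicate 1 it was 0.53. The FPKM ratio of Gdf9 to Bmp15 was 0.215 and 0.145 in control and 0.148 and 0.202 in treated embryos, so the ranges of the groups overlapped.

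Oosp1, on chromosome 19 from 11667460 to 11691150 on the minus strand, was the most abundant transcript of the set. Its counts were 6309 and 16965 in control and 45809 and 34331 in treated libraries, and its FPKM was 555, 1572, 3691 and 2917. By FPKM it ranked 270 and 63 in the control libraries and 12 and 21 in the treated libraries, among the 14876 to 15658 genes above 0 in a library. Both treated libraries stood above both controls, and the CPM was 2.37-fold and 1.82-fold that of control replicate 2. The log2FC of Oosp1 was 1.56 (SE 0.50, edgeR adjusted p = 0.333), and 1.08 without control replicate 1. DESeq2, fitted to every gene with a count and with transcript lengths as offsets, gave Oosp1 a log2FC of 1.56 (adjusted p = 0.0292). Over all alternatives the adjusted p of Oosp1 ranged from 0.000483 to 0.992. Its share of the summed FPKM of the set was 64.0% and 75.2% in control and 83.8% and 80.8% in treated libraries.

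**Figure D4:**
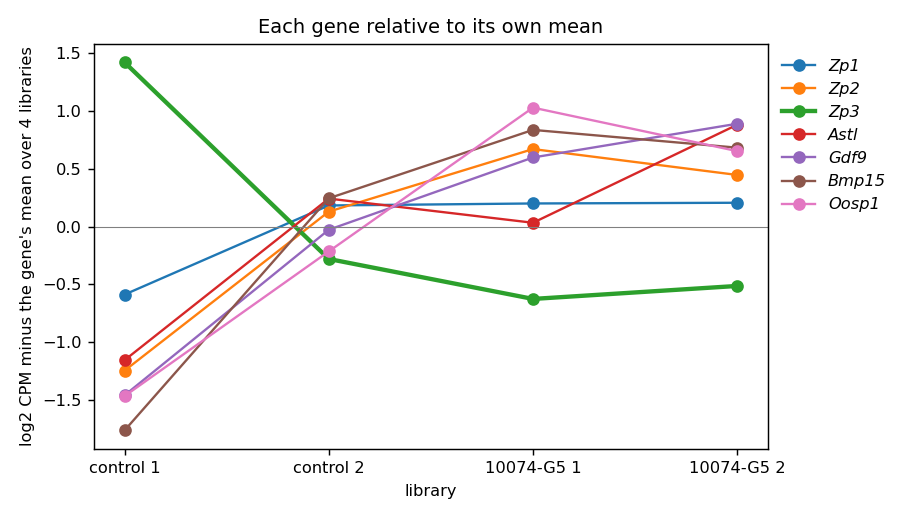
log2 CPM of each gene minus its own mean over the 4 libraries (y axis), by library (x axis); lines join the points of a gene. Zp3 (thick green) is at 1.42 in control replicate 1, where the other 6 genes lie between -1.76 and -0.59.

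Centred on its own mean, the log2 CPM of the 7 genes had a median of -1.24 in control replicate 1, 0.13 in control replicate 2, 0.60 in treated replicate 1 and 0.65 in treated replicate 2. The gap between the control libraries was thus larger than the gap between control replicate 2 and the treated libraries. On the log2 CPM scale, the control replicates of each of the 7 genes lay farther apart than control replicate 2 lay from the treated mean. This was the case for 66.4% of all tested genes. Zp2 and Zp1 kept closest to the mean profile of the set, with nearly equal root mean square differences on the log2 scale. These were 0.229 and 0.233 over the 4 libraries, and Zp3 was farthest at 1.36. The mean includes Zp3 itself and was -0.89 in control replicate 1. Zp1, at -0.59 there, lay above this mean, and the other genes except Zp3 lay below it, between -1.76 and -1.15. The closeness of Zp1 thus holds only for a mean with Zp3 in it. Among 5150 other genes that averaged 10 FPKM or more, those nearest to this mean profile were Txndc16, Fbxw19, Ube2d3, Tle6 and Lamtor5, with root mean square differences from 0.0323 to 0.0391. Tle6 encodes a member of the subcortical maternal complex. Their likeness rests on 4 libraries and on a mean that includes Zp3.

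Other genes of the egg surface and secretome were described from a list. Of 7 listed, 5 were higher and 2 lower in treated embryos, 0 were called by edgeR and 1, Izumo1r, by DESeq2 with transcript lengths. Their median log2FC was 0.89, which was 0.33 without control replicate 1 and 1.87 without control replicate 2. Izumo1r, which encodes JUNO, the egg's receptor for sperm IZUMO1, had 111 and 327 counts in control and 903 and 924 counts in treated libraries. Its log2FC was 1.84 (SE 0.55, edgeR adjusted p = 0.333) and 1.33 without control replicate 1. Cd9, a tetraspanin needed for fusion of egg and sperm, had 3387 and 2747 counts in control and 2842 and 3115 in treated libraries, a log2FC of -0.31, and overlapping groups. Oosp3, which lies 5905 bases from Oosp1, had 1404 and 6158 counts in control and 9969 and 9475 in treated libraries, and a log2FC of 1.16 that was 0.50 without control replicate 1. Oosp2, 6901 bases from Oosp1 on its other side, had 214 and 554 counts in control and 565 and 543 in treated libraries, and a log2FC of 0.31. Thus the genes on both sides of Oosp1 were also lowest in control replicate 1, and the treated libraries of Oosp2 lay near control replicate 2. Of the other oocyte growth factors, Bmp6 had a log2FC of 0.89 and Fgf8 of 1.05, with 3 and 94 Fgf8 counts in the control libraries, and the groups overlapped for both. Cd81, with at most 31 counts, is too low to compare.

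Of 27 genes for receptors, SMADs, convertases and antagonists of the BMP and TGF-beta pathway, 20 were tested, 12 were higher and 8 were lower, and 0 were called by edgeR or by DESeq2 with transcript lengths, while 1, Fstl3, had an unadjusted p under 0.05. Their median log2FC was 0.50, which was 0.18 without control replicate 1 and 1.08 without control replicate 2. Bmpr2, the type II receptor of BMP15 and GDF9, was the highest of them at 16.4 FPKM on average, with 2730 and 3836 counts in control and 3388 and 3840 counts in treated libraries and a log2FC of -0.11. Bmpr1b, a type I receptor for BMP15, had 186 and 446 counts in control and 737 and 732 counts in treated libraries, and a log2FC of 0.99 (SE 0.50, edgeR adjusted p = 0.373). Fstl3, a secreted antagonist of activins, had 5 and 5 counts in control and 89 and 50 in treated libraries, with a log2FC of 3.50 (SE 1.17, edgeR adjusted p = 0.333). The control values of Fstl3 are close to the 3 counts that a count of 0 allows. Smad2, a transducer of GDF9 signals, had a log2FC of 0.56, the inhibitory Smad7 of -0.45 and the convertase gene Pcsk7 of -1.79, with adjusted p-values of 0.523, 0.618 and 0.377 by edgeR. The antagonist genes Fst and Nog had no count in any library.

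Among 7 transcription factors of the oocyte, 4 were higher and 3 lower, and 0 were called by edgeR and 1, Nobox, by DESeq2 with transcript lengths. The median log2FC of 0.16 turned to -0.33 without control replicate 1 and was 2.28 without control replicate 2. Nobox had 197 and 427 counts in control and 1365 and 1257 in treated libraries, a log2FC of 1.84 (SE 0.46, edgeR adjusted p = 0.333) that was 1.46 without control replicate 1. Lhx8, a LIM homeobox gene of the oocyte, had a log2FC of 1.60 and groups that did not overlap. Figla, the activator of the zona genes, had 11 and 92 counts in control and 35 and 78 in treated libraries, with a log2FC of -0.05. Taf4b, a subunit of TFIID, was lower, with 4351 and 3190 counts in control and 2290 and 2206 in treated libraries and a log2FC of -1.02 (SE 0.38, edgeR adjusted p = 0.333). Sohlh1, Sohlh2 and Tcf3 had log2FC values of 0.64, -0.78 and 0.16, and the groups overlapped for each.

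The larger list of 32 other oocyte transcripts gave a background for the set. Of these, 29 were higher and 3 lower in treated embryos, with a median log2FC of 1.01, an unadjusted p under 0.05 for 11 genes, all higher, 0 called by edgeR, and 2, Oog1 and Zbed3, called by DESeq2 with transcript lengths. Without control replicate 1 the median of this list was 0.61, and without control replicate 2 it was 1.67. The median of the 7 genes less that of this list was -0.042. Oog1, Oog2 and Zbed3 had the smallest p-values, with log2FC values of 1.62, 1.52 and 1.49 and an adjusted p of 0.333 each by edgeR. The most abundant were Omt2b, Dppa3 and Omt2a, at 26579, 15487 and 8932 FPKM on average. Omt2b and Omt2a had log2FC values of 0.80 and 0.87. Dppa3, which encodes a maternal factor that protects the methylation of the maternal genome, was one of the 3 lower genes. It had 242697 and 146931 counts in control and 126977 and 129580 in treated libraries and a log2FC of -0.89 (SE 0.46, edgeR adjusted p = 0.384), so, like Zp3, it was highest in control replicate 1, and without that library its log2FC was -0.35.

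Of 23 genes that store or clear maternal mRNA, 17 were higher and 6 lower, and 0 were called by edgeR and 1, Ythdf2, by DESeq2 with transcript lengths. The median log2FC was 0.68, which was 0.27 without control replicate 1 and 1.13 without control replicate 2. Btg4, which brings the CCR4-NOT deadenylase to maternal mRNA, had 10889 and 51379 counts in control and 123266 and 73172 in treated libraries, and a log2FC of 1.45 (SE 0.68, edgeR adjusted p = 0.352) that was 0.77 without control replicate 1. Cnot7, a catalytic subunit of that deadenylase, had a log2FC of 0.96, and Cnot8, its paralog, of -0.70. Ythdf2, a reader of m6A that promotes mRNA decay, had 14888 and 6299 counts in control and 3882 and 3765 in treated libraries, a log2FC of -1.77 (SE 0.51, edgeR adjusted p = 0.333) that was -0.88 without control replicate 1. Eif4e1b, an oocyte cap-binding protein gene, had a log2FC of 1.59 and Dcp1a, of the decapping complex, of 1.12. The 7 two-cell markers were all higher, with a median log2FC of 1.10 that was 0.35 without control replicate 1 and 2.72 without control replicate 2.

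**Figure D5:**
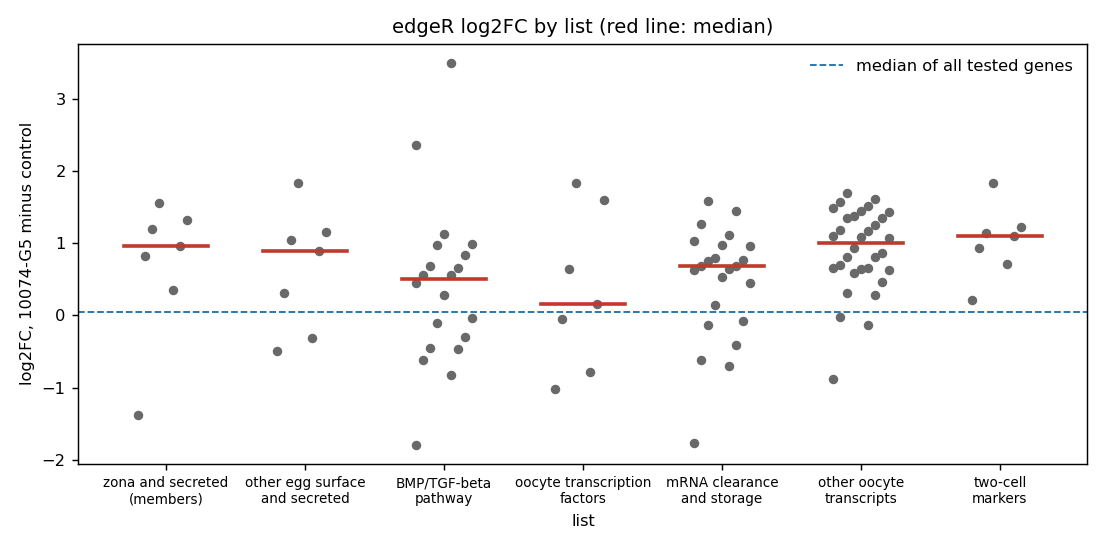
edgeR log2FC of every tested gene (points) by list, with the median of each list (red) and of all tested genes (dashed, 0.04). The medians of the 7 genes (0.96), the other oocyte transcripts (1.01) and the two-cell markers (1.10) lie close together, and the single low point of the first list is Zp3.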

How the data were processed

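Late two-cell mouse embryos were compared between 2 control (DMSO) and 2 10074-G5-treated libraries, grouped by the sample labels. The authors aligned read pairs to mm10 with STAR (2.7.10), kept uniquely mapped reads and quantified RefSeq genes with RSEM (1.3.3), without pooling replicates. The deposited expected count is RSEM's unnormalized estimate of fragments per gene; the FPKM and TPM deposited by the authors are scaled to effective length and library. The effective lengths were used as offsets in 1 alternative. Reads shared by near-identical copies, as in the Oog, Omt2, Zscan4 and Tdpoz families, are uncertain.

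Expected counts were rounded, filtered with filterByExpr of edgeR (minimum count 10, minimum total 15), scaled with TMM factors (0.873 to 1.06) and tested across all genes with edgeR 4.0.16 (quasi-likelihood, robust, two-sided, Benjamini-Hochberg) in R 4.3.3. The thresholds were the study's, |log2FC| > 1 and an adjusted p under 0.05. Standard errors are the log2FC divided by the root of the F statistic, and an SD is taken over both libraries of its group. Centred values are log2 CPM with a prior count of 2. Alternatives used DESeq2 1.42.0, limma 3.58.1, other scalings and filters, and each library left out in turn. Scripts were tested on simulated data. Genes are placed by GENCODE on GRCm38, the assembly of mm10. All member genes were named, every gene of a list with up to 7 genes, and in longer lists the 3 with the smallest p and the 3 with the highest FPKM were considered. The members and lists were chosen with earlier results of these data known, so no list was tested. Depth was 18206584 to 20718690 counts per library. The study's methods call the libraries biological replicates.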

Additional observations from a re-analysis of the deposited data

How the results depend on the processing

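With edgeR and 13549 genes, 0 genes and 0 of the 7 genes were called, and 639 higher and 1374 lower genes had an unadjusted p under 0.05. DESeq2 called 566 of the same 13549 genes. Of the 18208 genes with at least 1 count it called 524, and 512 with transcript lengths. Without a filter on low counts, edgeR called 644 of these 18208 genes. In each of these 4 settings 1 of the 7 genes was called, Oosp1. With each library left out in turn, from 2 to 4213 genes and from 0 to 5 of the 7 genes were called; the highest numbers came without control replicate 2, which leaves control replicate 1 as the lone control, assumed to vary like the treated libraries. Those 5 were Zp2, Zp3, Gdf9, Bmp15 and Oosp1. The fit without control replicate 2 tested 14669 genes, so calls in it were also frequent outside the 7 genes. Its spread rests on the treated libraries alone, and its calls were not read as evidence for the set. With the replicate number as a block, 44 genes and 0 of the 7 were called. The deviations of same-numbered libraries had a correlation of -0.034 across genes, so the replicate numbers were not read as pairs. Relative to the median of the other oocyte transcripts, the log2FC was -0.65 for Zp1, -0.042 for Zp2, -0.18 for Astl and -0.042 for the median of the 7 genes. In every other alternative run, each of the 7 genes kept the direction of its log2FC. The lowest count behind a value of the 7 genes was 46, for Astl in control replicate 1.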
